A study of Mus musculus with 12 samples.

Results

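The hepatic genes of insulin signaling and the FOXO factors downstream of it were examined in calorie-restricted (CR) mice. The 10 genes were taken by name as members of a pathway. No rule on their values was used, but earlier results of these data were known. They were the insulin receptor *Insr*, its adaptors *Irs1* and *Irs2*, and the phosphoinositide 3-kinase (PI3K) subunits *Pik3r1* and *Pik3ca*. The others were the kinases *Akt1* and *Akt2*, the transcription factors *Foxo1* and *Foxo3*, and *Trib1*. All 10 were among the 24537 genes of the RNA-Seq table, and all 10 passed the filter on low values that kept 10593 genes for testing. RNA-Seq was performed on livers of 12 male C57Bl/6J mice that entered the study at 6 weeks of age, were housed singly and received heavy water before sacrifice. The control (Con) mice ate an NIH41 diet ad libitum. The CR mice received a fortified NIH41 diet, 30% less than Con and given once daily around midday. Day 25 and day 30 had 3 mice per diet, and diet composition, meal timing and food amount differed together between Con and CR and cannot be told apart. Each library came from a different mouse. The 3 Con libraries of day 30 could not be tied to individual sample labels, so they are libraries of that group with no replicate label of their own, and their column numbers served only in an alternative fit and to leave out 1 library at a time.

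Insulin binding activates the receptor kinase, which phosphorylates the IRS adaptors; these recruit PI3K, whose lipid product activates AKT. In the liver, active AKT phosphorylates FOXO proteins and keeps them out of the nucleus, so that FOXO targets such as gluconeogenic genes are transcribed when insulin is low. Much of this control acts on proteins, and RNA levels do not show it.

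*Foxo1* was the member that stood apart between diets. Its FPKM (fragments per kilobase of transcript, scaled to the depth of the library) was 1.80 times higher in CR than in Con over both days, and all 6 CR livers lay above all 6 Con livers. *Foxo3* passed the threshold over both days but not at either day alone. *Insr*, *Irs1*, *Irs2*, *Pik3r1*, *Pik3ca*, *Akt1*, *Akt2* and *Trib1* did not pass in any of these comparisons.

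The libraries held 15748722 to 23345560 reads, of which 78.1% to 84.3% lay on exons. Read numbers of single members ranged from 124 to 506 for *Irs2*, the member with the fewest reads in a library, and from 2652 to 4417 for *Insr*. Hepatocyte markers were abundant, with a summed FPKM of 35829 to 50207 in Con and 49697 to 63808 in CR. *Alb* alone ranged from 25401 to 51723. Of the 6 hepatocyte markers, 2 (*Alb* and *Tat*) were higher over both days and 1 (*Apoa1*) was lower. Of all tested genes, 14.5% were higher and 26.1% lower. The summed FPKM of 6 stellate cell markers was 54.0 to 70.4 in Con and 74.2 to 94.3 in CR, with 4 of 6 higher over both days, and 3 of 6 Kupffer cell markers were lower and 1 higher, with sums of 33.1 to 63.1 and 23.9 to 44.1. Summed lymphocyte markers reached 2.89 in Con and 1.77 in CR, endothelial markers spanned 31.8 to 48.6 and 40.5 to 49.4, and cholangiocyte markers 10.2 to 17.8 and 7.57 to 16.5. Adipocyte sums reached 2.86 and pancreas sums 0.41, with 1 of 4 pancreas markers at 0 in every library; muscle markers reached 0.069 in Con and 3.80 in CR. The part of these cell-type shifts in the results below was not tested. In bulk liver, fewer cells of a type and less RNA per cell cannot be told apart.

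*Foxo1*, the FOXO factor best known for driving hepatic gluconeogenic genes, was counted over transcript NM_019739 on the plus strand (mm10 chr3:52268337-52350109). An antisense gene, Gm20402, shares 674 exonic bases with it, and the sources used here do not say whether strand was used in counting, so reads of both cannot be told apart there. Bases upstream of *Foxo1* and *Foxo3* are shown because these are the members called over both days. Both are from the window of 250 bases before the RefSeq start (GRCm38.p6), read in the direction of transcription, with CG dinucleotides in capitals. Of that window, 1 base for *Foxo1* and 60 bases for *Foxo3* lie within the gene as counted or annotated and are not printed. RefSeq promoter sequences were matched for 8 of the 10 members, all but *Insr* and *Trib1*.
Foxo1, chr3:52268087-52268335, plus strand: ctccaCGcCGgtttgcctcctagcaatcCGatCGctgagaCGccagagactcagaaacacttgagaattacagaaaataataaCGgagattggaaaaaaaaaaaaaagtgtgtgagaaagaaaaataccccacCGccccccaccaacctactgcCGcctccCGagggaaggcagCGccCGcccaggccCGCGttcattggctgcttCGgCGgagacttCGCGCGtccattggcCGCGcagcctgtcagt
Foxo3, chr10:42276756-42276945, minus strand: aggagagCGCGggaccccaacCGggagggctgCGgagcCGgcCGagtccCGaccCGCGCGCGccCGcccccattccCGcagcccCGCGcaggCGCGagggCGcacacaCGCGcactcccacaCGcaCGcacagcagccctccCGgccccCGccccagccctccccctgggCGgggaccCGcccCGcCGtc

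The whole *Foxo1* window holds 20 CG dinucleotides and has a GC content of 56.0%, and that of *Foxo3* holds 31 and has 76.4%, against a median of 6 and 52.4% over 32851 mouse promoter windows. Neither window holds the FOXO-type motif GTAAACA, the insulin response element core CAAAACA or the cAMP response element core TGACGTC on either strand. Among the other members matched, 3 held a motif. They are shown because FOXO factors are known to bind such elements, with the motif in capitals and in the direction of transcription. *Akt1* holds a FOXO-type motif, present in 3.65% of all promoter sequences, in the window before its counted transcript and not in its other window. *Irs1* (at 2 places) and *Irs2* hold the insulin response element core, present in 6.28%. The cAMP response element core, present in 3.21%, was in none of the 8. The shares were counted over sequences that also run a little past the RefSeq start. These matches describe letters and do not show binding.
Akt1, chr12:112675027-112675057, minus strand: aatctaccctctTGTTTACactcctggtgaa
Irs1, chr1:82291532-82291562, minus strand: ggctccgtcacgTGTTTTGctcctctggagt
Irs1, chr1:82291453-82291483, minus strand: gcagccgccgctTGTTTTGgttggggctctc
Irs2, chr8:11008948-11008978, minus strand: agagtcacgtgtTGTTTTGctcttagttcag

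In Con mice the order of levels, per length, was *Insr* (20.2 FPKM ± 1.20, SD, n = 6), *Akt1* (17.6 ± 2.18), *Trib1* (14.5 ± 2.36), *Pik3r1* (11.6 ± 0.899), *Foxo1* (11.0 ± 1.94), *Akt2* (8.60 ± 0.971), *Foxo3* (7.12 ± 2.14), *Pik3ca* (4.46 ± 0.213), *Irs2* (3.09 ± 0.282) and *Irs1* (2.75 ± 0.302). Only the ranges of *Pik3ca* and *Irs2* were apart, and every other pair of neighbors overlapped. In CR mice *Foxo1* came first at 19.8 ± 3.59 FPKM and *Insr* followed at 19.4, with *Foxo1* above *Insr* in 3 of the 6 livers. *Foxo1* was thus the fifth of the 10 in Con and level with the receptor gene in CR. *Foxo3* moved above *Akt2* in CR, at 9.89 against 9.01 FPKM, again with overlapping ranges. Only *Akt2* and *Pik3ca*, at 5.03 FPKM, were apart among neighbors in CR.

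**Figure D1:**
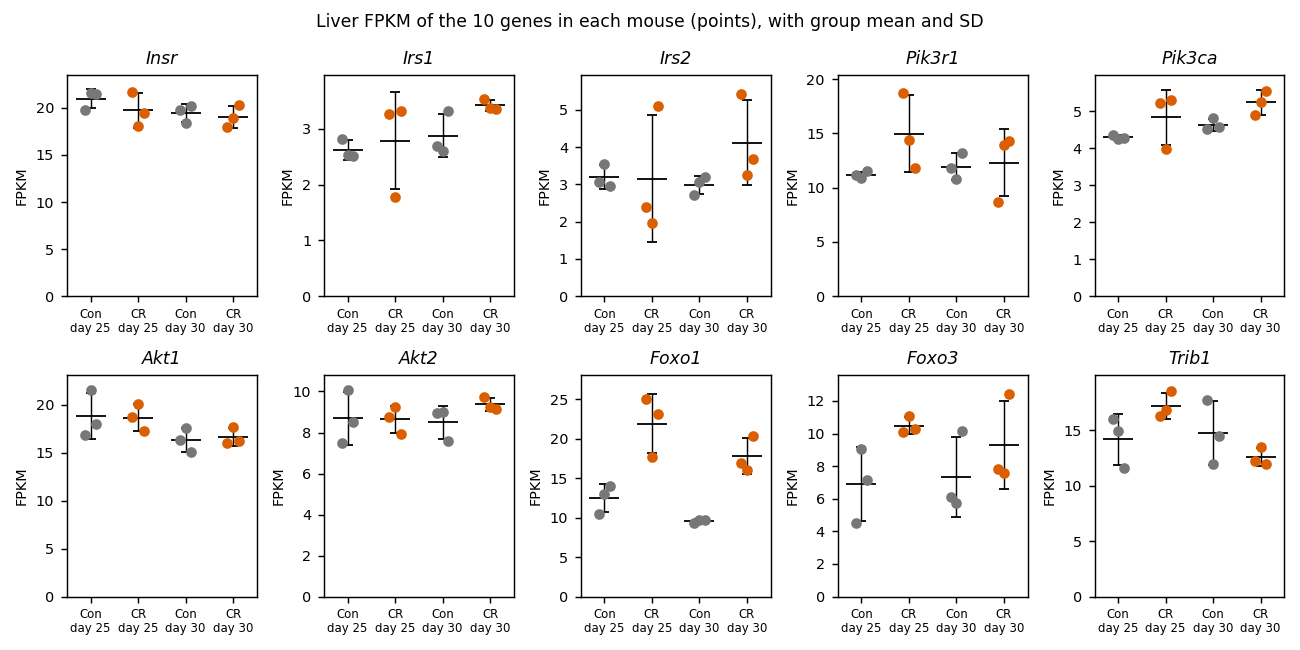
FPKM of each of the 10 genes (vertical axes, from 0) in each mouse (points; gray, Con; orange, CR) at day 25 and day 30, with the group mean and SD (black, n = 3). *Foxo1* is the only gene whose CR points lie above its Con points at both days.

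CR was compared with Con at each day and over both days with limma on log2(FPKM + 1), a scale that understates changes of low genes, and a gene was called at a Benjamini-Hochberg adjusted *P* under 0.1. At day 25, 1 of 10 members was called, where 14.9% of all tested genes were (5.6% higher and 9.34% lower). At day 30, 1 of 10 was called against a background of 24.7% (8.33% higher and 16.4% lower). Over both days 2 of 10 were called against 40.6%, and 3 of 10 were below an unadjusted *P* of 0.05 against 42.9%. Each called member was higher in CR, and with so few genes nothing is read from these shares. No member was called with a change of 1 or more on the log2 scale, which 1.48% of genes reached at day 25, 2.21% at day 30 and 1.66% over both days. The members' median change was 0.085 at day 25, 0.14 at day 30 and 0.12 over both days, beside medians over all tested genes of -0.039, -0.068 and -0.054. Over both days 9 of the 10 estimates were above 0, but those of *Insr* and *Akt1* changed sign with median ratio scaling and TPM, respectively. Of all tested genes 14.5% were called higher and 26.1% lower over both days. This split depended on the scaling between libraries, with 1536 higher and 2768 lower as deposited but 2229 and 1995 after median ratio scaling.

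The 3 CR and 3 Con mice did not overlap for 4 of 10 members at day 25, *Pik3r1*, *Foxo1*, *Foxo3* and *Trib1*, where 28.2% of all tested genes did not overlap. At day 30 the groups were apart for 5 of 10, *Irs1*, *Irs2*, *Pik3ca*, *Akt2* and *Foxo1*, against 36.4%. CR was higher in each of these 9 separations, where 10.2% of all genes at day 25 and 12.1% at day 30 were apart with CR higher. *Foxo1* was the gene common to both days. With values rescaled to an equal total over all genes in each library (TPM), 3 members, without *Trib1*, were apart at day 25 and 1, *Foxo1*, at day 30. The share of all genes apart was not computed with TPM, so nothing is read from these counts.

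**Figure D2:**
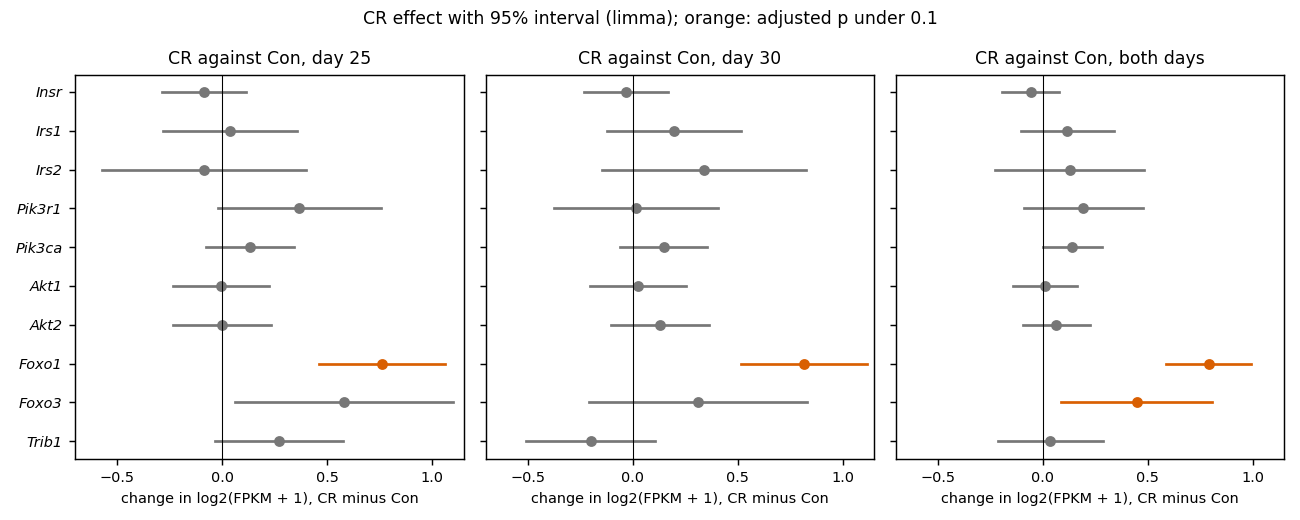
Change in log2(FPKM + 1), CR minus Con (horizontal axes), with 95% intervals from limma for each gene at day 25, at day 30 and over both days; orange marks an adjusted *P* under 0.1. The *Foxo1* intervals lie above 0 in all 3 panels, and *Foxo3* is orange only over both days.

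*Insr* encodes the receptor (NM_010568, mm10 chr8:3150922-3279617, minus strand). Its FPKM was 19.8, 21.6 and 21.5 in Con and 21.7, 18.0 and 19.5 in CR at day 25. The day 30 values were 19.8, 18.4 and 20.2 in Con and 18.0, 18.9 and 20.3 in CR. Values of both diets lay in one narrow band on both days. The change over both days was -0.059 on the log2 scale (95% CI -0.19 to 0.075, adjusted *P* = 0.50), the only estimate of the 10 below 0.

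*Irs1* and *Irs2* encode the adaptors that carry the signal from the receptor to PI3K. *Irs1* (NM_010570, mm10 chr1:82233105-82291439, minus strand) was at 2.82, 2.53 and 2.51 FPKM in Con and 3.26, 1.78 and 3.32 in CR at day 25. On day 30 *Irs1* was at 2.70, 2.61 and 3.32 in Con and 3.54, 3.37 and 3.36 in CR. The groups were apart only at day 30, by a narrow margin, and CR replicate 2 of day 25 was the lowest of all 12. The change of *Irs1* was 0.037 at day 25 (95% CI -0.28 to 0.36) and 0.20 at day 30 (95% CI -0.12 to 0.51, adjusted *P* = 0.38). Gm9747, on the opposite strand, shares 2822 exonic bases with *Irs1*. *Irs2* (NM_001081212, mm10 chr8:10986964-11008430, minus strand) was at 3.06, 3.56 and 2.96 FPKM in Con and 2.39, 1.96 and 5.10 in CR at day 25. Its day 30 values were 2.70, 3.05 and 3.20 in Con and 5.41, 3.26 and 3.68 in CR. One CR liver at each day stood well above the rest, and the SD of CR (1.70 and 1.14) was several times that of Con (0.319 and 0.253). The change of *Irs2* was -0.086 at day 25 (95% CI -0.57 to 0.40) and 0.34 at day 30 (95% CI -0.15 to 0.83, adjusted *P* = 0.32). It shares 162 exonic bases with 9530052E02Rik on the opposite strand.

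*Pik3r1* encodes the regulatory PI3K subunit p85α and its shorter forms, and *Pik3ca* encodes the catalytic subunit p110α. The table counts *Pik3r1* over a short transcript (NM_001024955, mm10 chr13:101680761-101692630, minus strand) that spans 13.5% of the annotated gene, so exons found only in longer forms were not counted. Its FPKM at day 25 was 11.2, 10.9 and 11.5 in Con and 18.8, 14.4 and 11.8 in CR. At day 30 the Con livers had 11.8, 10.8 and 13.2 and the CR livers 8.72, 13.9 and 14.3. CR livers lay above Con at day 25, while at day 30 they held the lowest and the highest values. The change of *Pik3r1* was 0.37 at day 25 (95% CI -0.023 to 0.76, adjusted *P* = 0.23) and 0.016 at day 30 (95% CI -0.37 to 0.41, adjusted *P* = 0.96). The difference between these effects was -0.35 (95% CI -0.90 to 0.20). *Pik3ca* (NM_008839, mm10 chr3:32436151-32468486, plus strand) was at 4.37, 4.25 and 4.26 FPKM in Con and 5.22, 3.98 and 5.29 in CR at day 25. At day 30 Con livers were at 4.51, 4.81 and 4.56 and CR livers at 4.90, 5.25 and 5.55. CR replicate 2 of day 25 lay below every Con liver, and the other 5 CR livers above every Con liver. The change over both days was 0.14 (SE 0.065, adjusted *P* = 0.12). This gene passed the threshold under median ratio scaling (adjusted *P* = 0.042) and quantile normalization (adjusted *P* = 0.030). It also passed without that CR liver (adjusted *P* = 0.020) and in a fit blocked on column number (adjusted *P* = 0.096), though the Con columns of day 30 have no replicate label.

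*Akt1* and *Akt2* encode the AKT kinases, of which AKT2 is the form most tied to insulin action on glucose. *Akt1* (NM_001331107, mm10 chr12:112653821-112674884, minus strand) was at 16.9, 21.5 and 18.0 FPKM in Con and 18.7, 20.0 and 17.2 in CR at day 25. On day 30 the values were 16.3, 17.6 and 15.1 in Con and 16.0, 17.7 and 16.2 in CR. The diets overlapped at both days. *Akt2* (NM_001331109, mm10 chr7:27607336-27640826, plus strand) was at 7.51, 10.1 and 8.50 in Con and 8.76, 9.24 and 7.92 in CR at day 25. At day 30 it was at 8.94, 9.00 and 7.56 in Con and 9.73, 9.24 and 9.15 in CR. Its groups were apart only at day 30, by less than the spread within Con. The change over both days was 0.0095 for *Akt1* (95% CI -0.14 to 0.16, adjusted *P* = 0.94) and 0.064 for *Akt2* (95% CI -0.097 to 0.23, adjusted *P* = 0.54).

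Ratios of related genes within a liver do not depend on scaling between libraries. *Akt2* to *Akt1* was 0.462 ± 0.0146 in Con and 0.463 ± 0.0051 in CR at day 25, and 0.520 ± 0.0249 and 0.565 ± 0.0419 at day 30 (SD, n = 3 each). All 6 livers of day 30, from 0.501 to 0.606, lay above all 6 of day 25, from 0.445 to 0.472, whatever the diet. This was seen in the data and was not tested. *Irs2* to *Irs1* was 1.13 ± 0.160 in Con and 1.16 ± 0.318 in CR over both days (n = 6 each). *Pik3r1* to *Pik3ca* was 2.61 ± 0.0734 in Con and 3.15 ± 0.794 in CR at day 25 and 2.59 ± 0.333 and 2.33 ± 0.481 at day 30. *Foxo3* to *Foxo1* was 0.655 ± 0.214 in Con and 0.504 ± 0.0915 in CR over both days. The diets overlapped in these 3 ratios.

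**Figure D3:**
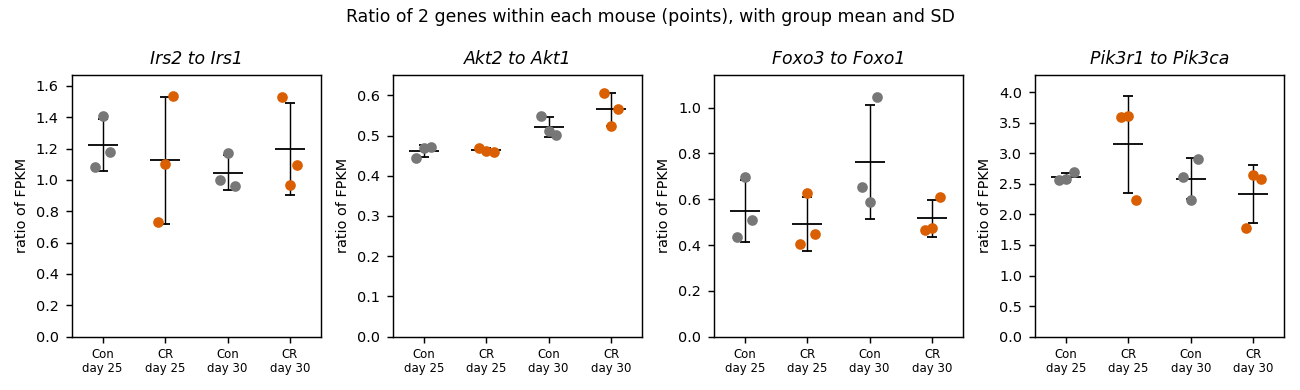
Ratio of the FPKM of 2 genes within each mouse (points; gray, Con; orange, CR) by diet and day, with group mean and SD (n = 3); the axes start at 0. *Akt2* to *Akt1* is higher in every liver of day 30 than in any of day 25, and the other 3 ratios overlap between diets.

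*Foxo1* FPKM at day 25 was 10.5, 13.0 and 14.0 in Con and 25.0, 17.7 and 23.1 in CR. At day 30 it was 9.37, 9.72 and 9.73 in Con and 16.9, 16.0 and 20.4 in CR. The lowest CR liver of either day, at 16.0, was above the highest Con liver, at 14.0. All 6 CR mice were above all 6 Con mice for 3.82% of the genes tested. The ratio of mean FPKM was 1.76 at day 25 and 1.85 at day 30. On the log2 scale *Foxo1* rose by 0.76 at day 25 (SE 0.14, adjusted *P* = 0.0064), by 0.82 at day 30 (SE 0.14, adjusted *P* = 0.0025) and by 0.79 over both days (SE 0.094, adjusted *P* = 7.15e-05), where it ranked 173 of 10593 by *P*. These calls held under each of the alternatives tried, with the change from 0.74 to 0.86 over both days. The CR effect differed between days by 0.055 (95% CI -0.37 to 0.48). From day 25 to day 30 the estimate for *Foxo1* was -0.34 in Con (adjusted *P* = 0.64) and -0.28 in CR (adjusted *P* = 0.58), neither past the threshold.

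*Foxo3*, which shares DNA-binding preference with *Foxo1*, was counted over NM_019740 (mm10 chr10:42185786-42276742, minus strand). At day 25 its FPKM was 4.54, 9.08 and 7.12 in Con and 10.1, 11.1 and 10.3 in CR. At day 30 it was 6.11, 5.71 and 10.2 in Con and 7.85, 7.60 and 12.4 in CR. CR livers lay close together above a scattered Con group at day 25, and at day 30 the groups overlapped, with 1 liver of each diet high. The change was 0.58 at day 25 (95% CI 0.061 to 1.10, adjusted *P* = 0.15), 0.31 at day 30 (95% CI -0.21 to 0.83, adjusted *P* = 0.39) and 0.45 over both days (SE 0.17, adjusted *P* = 0.058). In a fit blocked on replicate number the adjusted *P* at day 25 was 0.051, which made 2 of 10 members called, where the background was 19.6%. The call over both days was lost in 6 of 22 alternatives, in which the adjusted *P* reached 0.12 at most. Without Con replicate 1 of day 25, either of 2 Con libraries of day 30, or CR replicate 3 of day 30, only *Foxo1* of the members was called over both days. These fits called 3815 to 4041 of all tested genes. The effect on *Foxo3* differed between days by -0.27 (95% CI -1.0 to 0.47).

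*Trib1* encodes a pseudokinase that brings the ligase COP1 to its substrate C/EBPα and is linked to hepatic lipogenesis (NM_144549, mm10 chr15:59648654-59657099, plus strand). At day 25 its FPKM was 16.0, 14.9 and 11.6 in Con and 16.2, 16.8 and 18.5 in CR. At day 30 it was 17.7, 12.0 and 14.5 in Con and 12.3, 13.5 and 12.0 in CR. CR livers were just above Con at day 25, and at day 30 they sat in the lower end of the Con range. The change of *Trib1* was 0.27 at day 25 (95% CI -0.034 to 0.58, adjusted *P* = 0.25) and -0.20 at day 30 (95% CI -0.51 to 0.11, adjusted *P* = 0.35). The difference between the days was -0.47 (95% CI -0.90 to -0.039), and from day 25 to day 30 in CR the change was -0.42 (95% CI -0.73 to -0.12). Neither passed after adjustment over all genes, at an adjusted *P* of 1.0 and 0.38. No member was called for the difference between days or for time within CR or Con by limma, with 1 member of 10 below an unadjusted *P* of 0.05 in each and 0.00944%, 0.321% and 0% of all genes called. At an unadjusted *P* under 0.05 the background was 3.46%, 8.66% and 7.22%.

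The genes around the members were followed with 7 lists of 103 genes, of which 85 were tested. Over both days 21 were called higher and 23 lower, and 41 were not called, beside 14.5% higher and 26.1% lower among all tested genes. None of the 85 was called for the difference between days. Among the both-day calls given below, those of *Akt1s1*, *Sgk1*, *Acaca* and *Angptl8* were lost in 9, 10, 7 and 3 of 22 alternatives, and those of *Mapkap1* and *Phlpp1* in 1 each. Genes such as *Igf1r*, *Grb10*, *Foxo6* and *Trib2* were too low to be tested.

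Of 14 tested receptor and proximal genes, 2 were higher and 7 lower over both days, where 14.5% and 26.1% of all tested genes were. With median ratio scaling 2 were higher and 5 lower (2229 and 1995 of all tested genes), and with quantile normalization 2 and 4 (2040 and 1994). *Gab1*, a docking protein, rose from 3.03 ± 0.132 to 4.58 ± 0.0565 FPKM at day 25 and from 3.17 ± 0.215 to 5.05 ± 0.205 at day 30 (SD, n = 3; change over both days 0.50, adjusted *P* = 2.63e-05). *Enpp1*, a membrane enzyme that restrains the receptor, rose by 0.44 (adjusted *P* = 0.00063). *Grb14*, an inhibitor of the receptor kinase, fell by 0.38 (adjusted *P* = 0.0016). The phosphatase gene *Ptprf* fell by 0.37 (adjusted *P* = 0.011) and *Socs6* by 0.29 (adjusted *P* = 0.011). Restraining genes thus stood on both sides.

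Of 11 tested PI3K-AKT genes, 1 was higher and 5 were lower, against the same background of 14.5% and 26.1%. With median ratio scaling or quantile normalization 2 of them were higher and 3 lower. *Inppl1*, which encodes the lipid phosphatase SHIP2, rose by 0.49 (adjusted *P* = 0.00020), from 6.23 ± 0.568 to 9.10 ± 0.922 FPKM at day 25. The regulatory subunit gene *Pik3r2* fell by 0.23 (adjusted *P* = 0.030), the AKT phosphatase gene *Phlpp1* by 0.24 (adjusted *P* = 0.033), and the mTORC2 component genes *Mapkap1* and *Prr5* by 0.19 and 0.32 (adjusted *P* = 0.032 and 0.019). Of 9 AKT substrate genes, 1 was higher and 2 lower. *Pfkfb2*, which makes and degrades fructose 2,6-bisphosphate, rose by 0.51 (adjusted *P* = 0.0029), *Mdm2*, a ubiquitin ligase for p53, fell by 0.35 (adjusted *P* = 0.00056), and *Akt1s1*, an mTORC1 inhibitor, fell by 0.16 (adjusted *P* = 0.072).

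Of 11 FOXO relatives and regulators, 1 was higher and 2 lower, where the background was 14.5% and 26.1%. With median ratio scaling or quantile normalization 3 of them were higher and 2 lower. Of all 10593 tested genes, 2229 were higher and 1995 lower with median ratio scaling, and 2040 and 1994 with quantile normalization. *Sgk2*, a kinase related to AKT, had the largest change of these, from 31.7 ± 2.99 to 17.2 ± 2.54 FPKM at day 25 and from 34.7 ± 3.76 to 16.7 ± 2.37 at day 30 (-0.93 over both days, adjusted *P* = 2.26e-05). *Sgk1* rose by 0.36 (adjusted *P* = 0.077), and *Stk4*, a kinase that phosphorylates FOXO proteins, fell by 0.23 (adjusted *P* = 0.020). *Foxo4* was not called, with a change of 0.13 (adjusted *P* = 0.14).

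Of 24 known FOXO target genes, all tested, 11 were higher, 4 lower and 9 not called over both days, where 14.5% of all tested genes were higher and 26.1% lower. The list's median change was 0.21, and over the alternatives its counts ran from 9 to 13 higher and from 2 to 6 lower. At day 25 3 were higher and 1 lower (background 5.6% and 9.34%), and at day 30 5 and 1 (8.33% and 16.4%). The day 25 counts depended on single livers, with 7 higher and 0 lower without CR replicate 2, 1 and 0 without CR replicate 3, 1 and 1 without Con replicate 1, and 2 and 0 without Con replicate 3. Without a filter on low values 1 was higher and 1 lower. The day 30 counts ran from 4 to 9 higher and from 0 to 3 lower. *Igfbp1*, a secreted binder of IGF that insulin represses, rose from 32.2 ± 15.4 to 99.8 ± 65.6 FPKM at day 25 and from 11.0 ± 4.46 to 69.0 ± 33.5 at day 30 (change over both days 2.03, adjusted *P* = 0.0013). *Cdkn1a*, a cell cycle inhibitor, rose by 1.20 over both days (adjusted *P* = 0.0059). Its change was 1.70 at day 25 (adjusted *P* = 0.011) and 0.70 at day 30 (adjusted *P* = 0.19), where it was low, at 0.532 FPKM in Con and 1.55 in CR. *Ppargc1a*, a coactivator of gluconeogenic genes, rose by 0.92 (adjusted *P* = 0.0017). *Pck1*, a rate-controlling gluconeogenic enzyme, rose by 0.64 over both days (adjusted *P* = 0.010), with a change of 0.27 at day 25 (adjusted *P* = 0.41) and 1.02 at day 30 (adjusted *P* = 0.0034). *Sesn3*, a stress-response gene, fell by 0.43 (adjusted *P* = 0.011). The list held members that rose and members that fell, and it was chosen with earlier results of these data known.

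**Figure D4:**
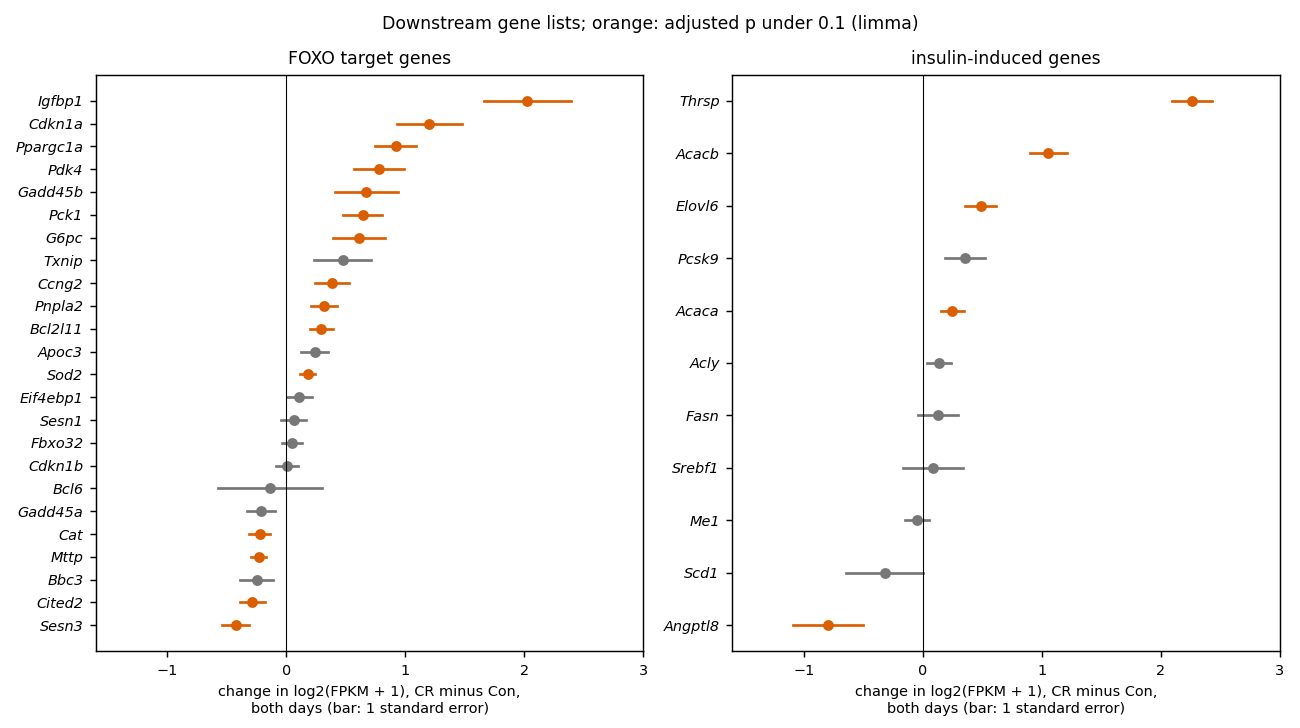
Change in log2(FPKM + 1), CR minus Con over both days (horizontal axes; point, estimate; bar, 1 SE on each side) for 24 FOXO target genes (left) and 11 of the 12 tested insulin-induced genes (right), ordered by change; orange marks an adjusted *P* under 0.1. *Igfbp1* at 2.03 leads the first list and *Thrsp* at 2.27 the second.

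Of 12 tested genes that insulin is known to induce, 4 were higher and 1 lower over both days, where 14.5% and 26.1% of all tested genes were. Over the alternatives 3 to 6 were higher and 0 to 1 lower. *Thrsp*, a lipogenic gene, rose from 37.6 ± 5.74 to 191 ± 52.0 FPKM at day 25 and from 74.1 ± 24.6 to 347 ± 64.3 at day 30 (change 2.27, adjusted *P* = 3.14e-06). *Acacb* rose by 1.05 (adjusted *P* = 0.00034). *Elovl6* and *Acaca*, for fatty acid elongation and malonyl-CoA synthesis, were called at day 30 with 0.92 (adjusted *P* = 8.64e-05) and 0.50 (adjusted *P* = 0.0050), and their day 25 changes were 0.05 and -0.01. Over both days the change of *Acaca* was 0.25 (adjusted *P* = 0.064). *Angptl8*, a secreted inhibitor of lipoprotein lipase, fell by 0.79 (adjusted *P* = 0.056). *Srebf1* (0.09, adjusted *P* = 0.82) and *Fasn* (0.13, adjusted *P* = 0.59) did not pass. Genes of both the FOXO target list and the insulin-induced list were thus among those higher in CR.

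Of the 4 tested Tribbles genes and partners, 1 was higher and 2 lower over both days, where 14.5% and 26.1% of all tested genes were. *Trib3* fell by 0.71 over both days (adjusted *P* = 0.015), though Con and CR overlapped at each day. Its change was -0.61 at day 25 (adjusted *P* = 0.20) and -0.80 at day 30 (adjusted *P* = 0.069). The day 30 call was lost in 6 of 23 alternatives. *Cebpa*, whose product TRIB1 targets, fell by 0.47 over both days (adjusted *P* = 0.014). At day 25 it was at 127 ± 15.2 FPKM in Con and 111 ± 10.2 in CR, with a change of -0.19 (adjusted *P* = 0.46). At day 30 it was at 156 ± 28.2 FPKM in Con and 92.3 ± 12.5 in CR, with a change of -0.75 (adjusted *P* = 0.0056). *Cebpb* rose by 0.74 (adjusted *P* = 0.00029). The gene of COP1 was not called, with a change of 0.01 (adjusted *P* = 0.97).

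The genes whose levels followed the members most closely over the 12 libraries were found by Pearson's r of log2(FPKM + 1). For *Foxo1* these were *Il6ra* (r = 0.974), *Rhobtb1* (0.967) and *AA986860* (0.966), each also higher in CR, by 0.96, 1.03 and 1.27. For *Insr* they were *Kif13b* (0.907), *Zbtb38* (0.839) and *Adgrl2* (0.829). For *Irs2* they were *Pnp* (0.875), *Mycl* (0.868) and *Jam2* (0.865), and for *Trib1* *Fam207a* (0.843), *Porcn* (0.819) and *Zfp622* (0.816). The points share diet group, day and library depth, and the values are a description.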

How the data were processed

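The authors sequenced paired-end liver libraries on a single lane, mapped reads to mm10 with BWA and deposited FPKM values, made with HOMER from exonic reads of 1 transcript per gene according to the table's header. As FPKM are not counts, log2(FPKM + 1) of the 10593 genes that reached an FPKM of 1 in 3 or more libraries was fitted with limma 3.58.1 (R 4.3.3). Effects at each day came from 1 model of 4 group means with a variance trend, and the effect over both days from a model with day as a covariate. Tests were 2-sided, with Benjamini-Hochberg adjustment over all genes tested and a threshold of 0.1. The code was tested on simulated data. Depth (15748722 to 23345560 reads), which limits low genes, was recovered from the steps of low values, 100% of which were whole within 0.1 read. Same-numbered Con and CR libraries of day 25 deviated together from their group means, with correlations of 0.106 to 0.368. Deviations within a group cancel out, so the mean for different numbers (-0.131) is tied to these values and is no separate contrast. A blocked value is given where it changes a member's call at day 25 or over both days.

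The members and lists were chosen with earlier results of these data known. Named were all 10 members, up to 5 called genes of each list by the smallest *P* over both days, and the 3 genes best correlated with *Insr*, *Irs2*, *Foxo1* and *Trib1*. *Foxo4*, *Srebf1*, *Fasn* and the COP1 gene were added after their values were seen. Some genes of the lists are counted but not reported singly here. Alternatives changed the pseudocount, filter, scaling, variance model, samples and block. Sequences came from RefSeq (GRCm38.p6) and gene spans from GENCODE.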

Additional observations from a re-analysis of the deposited data

How the results depend on the processing

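*Foxo1* kept its direction and its call under all 23 alternatives at day 25 (change 0.65 to 0.90), all 23 at day 30 (0.72 to 0.89) and all 22 over both days (0.74 to 0.86). At a single day, leaving out a library of the other day could change only the call and not the estimate. With the column number as a block, 2 members, *Foxo1* and *Foxo3*, were called at day 25 and 2 at day 30. At day 30 column numbers paired the libraries less clearly (correlations 0.0456 to 0.181), and the adjusted *P* of *Foxo3* was 0.064. Over both days the block gave 3 members, with *Pik3ca* added. The same fits called 19.6% of all genes at day 25, 23.9% at day 30 and 46.3% over both days, and of the FOXO targets at day 30 they called 9 higher and 3 lower. At day 25 the block called 2 higher and 3 lower receptor and proximal genes (2 and 1 without it), 4 and 0 insulin-induced genes (2 and 0), 1 and 1 AKT substrate genes (0 and 1) and 1 and 1 Tribbles genes and partners (1 and 0). Without a filter on low values 1 member was called over both days, where 4655 genes were called in all. Leaving out 1 library gave 1 to 2 members at day 25 (2 without Con replicate 2, where 1246 genes were called in all) and 1 to 3 over both days. Where this left 1 member over both days, 3815 to 4041 genes were called in all. Without CR replicate 2 of day 25 the members called over both days were *Irs1*, *Pik3ca* and *Foxo1*. Without CR replicate 1 of day 30 they were *Pik3r1*, *Foxo1* and *Foxo3*. Small changes changed sign. Under median ratio scaling the change of *Akt1* at day 25 was 0.053, of *Akt2* at day 25 0.055, of *Insr* at day 30 0.048 and of *Insr* over both days 0.010. Under quantile normalization *Akt2* at day 25 was at 0.038 and *Insr* at day 30 at 0.029. With TPM *Pik3r1* at day 30 was at -0.017, *Akt1* at day 30 at -0.0064 and *Akt1* over both days at -0.015. Leaving out 1 library gave ranges of -0.071 to 0.25 for *Irs1* at day 25, -0.40 to 0.12 for *Irs2* at day 25, -0.077 to 0.088 for *Akt1* at day 25, -0.092 to 0.098 for *Akt2* at day 25, -0.074 to 0.0075 for *Insr* at day 30, -0.099 to 0.23 for *Pik3r1* at day 30, -0.026 to 0.077 for *Akt1* at day 30, -0.020 to 0.054 for *Akt1* over both days, -0.048 to 0.12 for *Trib1* over both days and -0.084 to 0.17 for *Foxo1* in the difference of the CR effect between days. The causes were not tested. The split of genes called over both days was 2040 higher and 1994 lower with quantile normalization and 1438 and 3052 with TPM. Depth limits *Irs1*, *Irs2* and *Foxo3* most, with as few as 257, 124 and 241 reads in a library.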
